A study of Mus musculus with 28 samples.

Results

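Type 2 conventional dendritic cells (cDC2) sorted from mouse spleen were compared across 3 genotypes of an Irf8 enhancer located +32 kb from the gene. All cDC2 libraries of the first of 2 experiments were taken, which made 6 libraries of the 28 in the series and of the 16 in that experiment. Both WT libraries carried 0 altered copies of the enhancer, both Irf8 +32H/+ libraries (H/+) carried 1, and both Irf8 +32H/H libraries (H/H) carried 2. All mice were C57BL/6, and no group used here carried the Nfil3 deletion or the Zeb2 alteration of the second experiment, which held no cDC2. The labels describe each group's libraries as biological duplicates. They give no sort gate, age or sex, and they name no Cre driver, so the altered allele is read here as carried by every cell of the mouse.

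Conventional dendritic cells take up antigen and present it to T cells. The cDC1 branch is known for uptake of dead cells and cross-presentation to CD8 T cells, and the cDC2 branch for presentation to CD4 T cells. IRF8 is a transcription factor that cDC1 require throughout life and keep at a high level through the +32 kb enhancer, whereas mature cDC2 hold little IRF8 and more of its relative IRF4. IRF8 binds DNA together with partners of the ETS and AP-1 families, such as PU.1 and BATF3. The comparison asks whether an enhancer known for its work in cDC1 alters the transcripts of the branch in which Irf8 is normally low.

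Depth ranged from 26082843 to 38174301 expected counts in the 6 libraries. The sorted cells carried the defining cDC2 markers: Sirpa lay between 205 and 261 CPM (counts scaled to a common library size by trimmed-mean normalization), Irf4 between 94.1 and 132, Cd4 between 189 and 286, and Clec4a4 between 120 and 137. Of the defining cDC1 markers Xcr1 lay between 5.22 and 10.5 CPM and Itgae between 0.345 and 1.26, while Batf3, between 65.3 and 72.1 CPM, was not low in these cells. Markers of other cell types were not at 0, and their summed CPM in H/H, H/+ and WT cDC2 stood at 664 to 787 for B cell genes, 57.2 to 80.5 for T cell genes and 3169 to 4087 for genes of monocytes and macrophages. The sums of neutrophil genes were 3.90 and 7.45 CPM in H/H and 2.30 to 2.98 in the H/+ and WT libraries, and for 8 of 11 tested T cell genes both H/H libraries lay below both WT libraries (15.3% of all genes did), with a median log2 difference of -0.70. The sums of erythroid and platelet genes were 16 to 85.5 CPM, and the defining T cell gene Cd3e stayed at or under 3.52 CPM. No member of these lists was called in the ordered test or between any 2 cDC2 genotypes, with or without the replicate block described further on, and their part in the results was not tested. In every group the replicate 1 library held transcripts of the Y-linked gene Ddx3y and the replicate 2 library held Xist, so replicate number and sex coincide.

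Irf8 itself was higher with each altered copy in cDC2. Both WT libraries held 48.9 and 47.9 CPM, both H/+ libraries 57.1 and 63.6 CPM, and both H/H libraries 86.2 and 109 CPM. No genotype's range touched another's. In H/H against WT cDC2 the mean level was 2.02 times as high (log2 difference 1.02, SE 0.13, adjusted p = 0.00345, edgeR quasi-likelihood test over 16036 genes). In H/+ against WT cDC2 the log2 difference was 0.32 (SE 0.13) and did not pass (adjusted p = 0.919). As an ordered term over the 6 libraries, the change was 0.51 per copy on the log2 scale (SE 0.07), with adjusted p = 0.0531 and, with the replicate number as a block, adjusted p = 0.0358. The H/H call was lost without H/H replicate 2 (adjusted p = 0.0616), without WT replicate 1 (0.0548), without WT replicate 2 (0.0798), and in a fit on the 6 cDC2 libraries alone (0.0889), with differences between 0.83 and 1.03. In bulk libraries such as these, more or fewer cells of a type and more or less RNA per cell cannot be told apart.

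**Figure D1:**
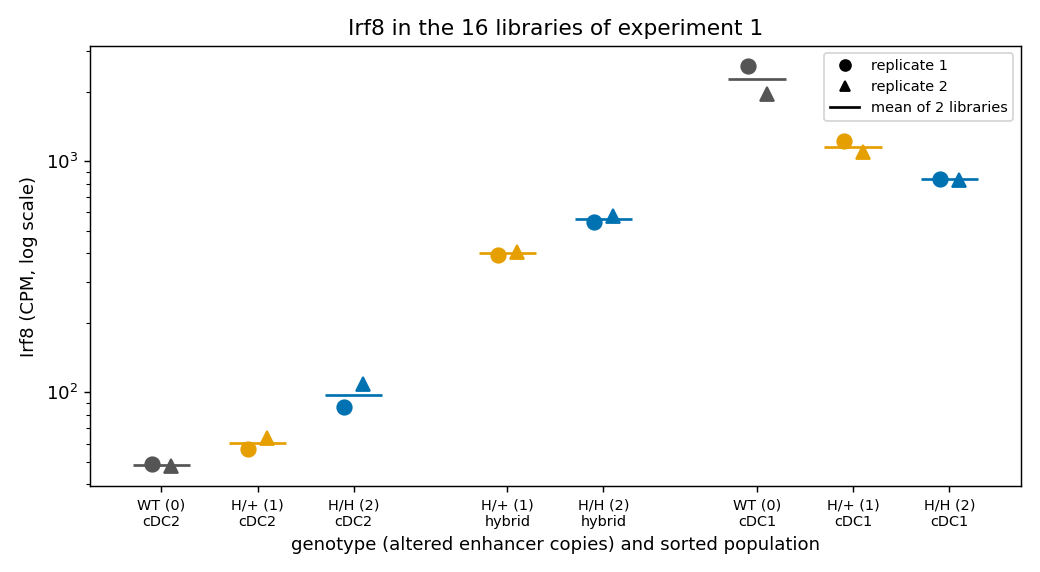
Irf8 level in the 16 libraries of the first experiment. The y axis is CPM on a log scale, and the x axis gives genotype, number of altered copies and sorted population. Circles are replicate 1, triangles replicate 2 and bars the mean of 2 libraries. Irf8 is higher with each copy in cDC2 (48.4, 60.4 and 97.6 CPM) and lower with each copy in cDC1 (2270, 1160 and 834 CPM).

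Irf8 (ENSMUSG00000041515) spans chr8:120736358-120756694 on the plus strand of GRCm38. Its proximal promoter is shown because it is the target of the altered enhancer. The line gives the 250 bases that end just before a RefSeq start site (GRCm38.p6, chr8:120736108-120736357, plus strand), 5′ to 3′, in lower case because none of the motifs listed further on was found in it.
Irf8: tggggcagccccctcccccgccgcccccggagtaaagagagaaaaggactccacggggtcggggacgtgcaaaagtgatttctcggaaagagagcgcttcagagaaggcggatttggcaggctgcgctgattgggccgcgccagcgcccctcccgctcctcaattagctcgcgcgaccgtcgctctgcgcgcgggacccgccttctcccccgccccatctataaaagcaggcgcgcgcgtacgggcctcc

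The tested genes around Irf8 did not pass. Of 28 other annotated genes within 500 kb, 7 had enough counts to be tested, and none passed in the ordered test or in H/H against WT. Cox4i1, a subunit of cytochrome c oxidase and an upstream neighbour, held 632 and 592 CPM in WT, 588 and 524 in H/+ and 552 and 545 in H/H cDC2 (per-copy log2 change -0.08, SE 0.05, adjusted p = 0.999). Emc8, Gins2, Gse1 and Mthfsd had per-copy log2 changes of 0.06, 0.04, 0.07 and 0.01. The low transcript Gm33142 and the annotated locus Galnt2l, which spans Irf8 and so may share its reads, had changes of 0.19 (SE 0.34) and 0.22 (SE 0.20).

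The ordered test across 0, 1 and 2 copies called 5 of 15208 genes (0.0329%), 3 higher (0.0197%) and 2 lower (0.0132%), with 533 genes at an unadjusted p under 0.05. Those higher were Clec9a, Ppt1 and Gpr141b, and those lower were Mgl2 and Tarm1. H/H against WT called 13 of 16036 genes (0.0811%), 11 higher (0.0686%) and 2 lower (0.0125%). They were the same 5 in the same directions and 8 more that were higher, Irf8, Cd36, P2ry14, Rab7b, Ifi205, Gbp2b, Serpinb8 and Itga8. With the replicate number, and so the sex, as a block the ordered test called 14 genes (0.0921%), 9 higher (0.0592%) and 5 lower (0.0329%), among them all of the 5, and H/H against WT called 22 (0.137%), 16 higher (0.0998%) and 6 lower (0.0374%), among them all of the 13. The count of 5 became 9 without H/H replicate 1, 1 without H/H replicate 2, 10 without H/+ replicate 1, 11 without H/+ replicate 2 and 0 without WT replicate 1 (467 genes at an unadjusted p under 0.05), and the count of 13 became 0 in a fit on the 6 cDC2 libraries alone (565 at an unadjusted p under 0.05), 8 without H/H replicate 2 and 7 without WT replicate 2.

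Receptors known from the cDC1 branch were among the genes that rose. Clec9a, a C-type lectin that recognises actin filaments of dead cells, held 7.19 and 6.09 CPM in WT, 11 and 11.5 in H/+ and 15.4 and 19.5 in H/H cDC2. The 3 genotypes did not overlap, and Clec9a changed by 0.70 per copy on the log2 scale (SE 0.08, adjusted p = 0.024, edgeR). In H/H against WT it was 2.64 times as high (adjusted p = 9.37e-05). Cd36, a scavenger receptor for oxidised lipids and dead cells, held 11.8 and 13.3 CPM in WT, 31.4 and 39.1 in H/+ and 41.7 and 66.0 in H/H cDC2. Its H/H mean was 4.28 times the WT mean (log2 difference 2.10, SE 0.17, adjusted p = 9.37e-05), and the per-copy change of 1.04 (SE 0.15) passed with the replicate block (adjusted p = 0.0358) but not without it (adjusted p = 0.189). The H/+ and H/H replicate 2 libraries were the higher of their groups for Cd36.

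P2ry14, a receptor for UDP-glucose, held 2.55 and 3.86 CPM in WT, 9.10 and 11.4 in H/+ and 12.1 and 19.5 in H/H cDC2, so that every library with an altered copy stood above both WT libraries. H/H was 4.88 times as high as WT (log2 difference 2.29, SE 0.22, adjusted p = 0.00033), and the per-copy change of 1.13 (SE 0.19) again passed with the block (adjusted p = 0.0358) and not without it (0.205). Gpr141b, a gene of the G protein-coupled receptor family with no ligand named here, held 0.58 and 0.97 CPM in WT, 1.96 and 1.59 in H/+ and 3.87 and 3.96 in H/H cDC2. Its change per copy was 1.16 (SE 0.15, adjusted p = 0.0446), and H/H was 4.90 times as high as WT (adjusted p = 9.37e-05). H/H stood apart from WT for Clec9a, Cd36, P2ry14, Gpr141b and Ppt1 whichever cDC2 library was left out, and none of the 5 passed in the fit on the 6 libraries alone (adjusted p from 0.0808 to 0.0889). Clec9a lost its ordered call without H/H replicate 2, WT replicate 1 or WT replicate 2 (adjusted p 0.199, 0.21 and 0.132), and Gpr141b without any 1 of the H/H or WT libraries (0.0829 to 0.272).

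An exact permutation test of the slope of log2 CPM on copies gave p = 0.0222, two-sided, for each of Irf8, Cd36, Clec9a and P2ry14, which is the smallest value that the 90 arrangements of 6 libraries allow. An exact permutation test within replicate number, an alternative added after the data were seen, gave p = 0.0556 for each, the smallest that its 36 arrangements allow, so this paired form cannot reach 0.05. The slopes within replicate 1 and within replicate 2 were 0.41 and 0.60 for Irf8, 0.91 and 1.15 for Cd36, 0.55 and 0.83 for Clec9a, and 1.11 and 1.16 for P2ry14. All 8 slopes were above 0. For each of these 4 genes the genotypes were ordered upward without overlap. Both permutation p-values and the sign of every slope follow from that order and add no support to it. These 4 genes were picked with earlier results of these libraries known, and no adjustment over them was made.

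The upstream sequences of these receptor genes are shown because the genes, like Irf8, were called higher in H/H than in WT cDC2. Each line holds the 250 bases before 1 RefSeq start site on the gene's strand, 5′ to 3′ (GRCm38.p6). They are chr6:129408612-129408861 plus for Clec9a, chr5:17835897-17836146 minus for Cd36, chr3:59153493-59153742 minus for P2ry14 and chr13:19732952-19733201 minus for Gpr141b. Capitals mark an AP-1 site TGANTCA in P2ry14 and an interferon response repeat (GAAA, any 2 bases, GAAA) in Gpr141b.
Clec9a: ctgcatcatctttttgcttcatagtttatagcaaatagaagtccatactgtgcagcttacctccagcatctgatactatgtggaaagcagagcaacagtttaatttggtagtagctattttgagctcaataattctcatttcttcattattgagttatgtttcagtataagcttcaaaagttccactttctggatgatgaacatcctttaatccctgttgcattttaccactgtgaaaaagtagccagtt
Cd36: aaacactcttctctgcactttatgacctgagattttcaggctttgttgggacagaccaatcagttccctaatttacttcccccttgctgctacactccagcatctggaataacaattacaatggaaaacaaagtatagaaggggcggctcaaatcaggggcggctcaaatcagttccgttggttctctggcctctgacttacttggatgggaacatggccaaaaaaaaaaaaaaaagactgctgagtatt
P2ry14: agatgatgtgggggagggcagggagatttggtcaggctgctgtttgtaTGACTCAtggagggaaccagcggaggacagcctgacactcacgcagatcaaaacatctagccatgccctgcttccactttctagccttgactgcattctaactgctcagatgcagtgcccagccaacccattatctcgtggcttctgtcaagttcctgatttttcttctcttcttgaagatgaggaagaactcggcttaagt
Gpr141b: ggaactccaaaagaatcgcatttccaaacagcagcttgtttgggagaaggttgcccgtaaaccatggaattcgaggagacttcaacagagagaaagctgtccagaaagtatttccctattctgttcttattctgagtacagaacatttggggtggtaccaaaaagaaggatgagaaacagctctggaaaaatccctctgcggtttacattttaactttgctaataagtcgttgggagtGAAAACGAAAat

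The other called genes that rose had varied roles. Ppt1, a lysosomal enzyme that removes palmitate from proteins, held 169 and 152 CPM in WT, 219 and 246 in H/+ and 298 and 375 in H/H cDC2. The gene lies at chr4:122836242-122859175 (GRCm38, plus strand). Its change per copy was 0.53 (SE 0.06, adjusted p = 0.024), and H/H was 2.10 times as high as WT (adjusted p = 0.000236). Rab7b, a small GTPase of late endosomes, held 4.97 and 6.07 CPM in WT, 12.2 and 20.3 in H/+ and 21.4 and 37.9 in H/H cDC2, with H/H 5.36 times as high as WT (adjusted p = 0.00517). Serpinb8, a serine protease inhibitor, held 1.48 and 1.16 CPM in WT, 3.23 and 3.72 in H/+ and 4.37 and 5.32 in H/H cDC2, with H/H 3.69 times as high as WT (adjusted p = 0.00169). Ppt1 lost the ordered call without H/H replicate 2, WT replicate 1 or WT replicate 2 (adjusted p 0.187, 0.21 and 0.132), Rab7b lost the H/H call without WT replicate 1 or 2 (0.124 and 0.0908), and Serpinb8 without WT replicate 2 (0.0677).

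Among interferon-inducible genes a p200 gene and a guanylate-binding protein gene rose, and no gene of the wider interferon-stimulated list passed. Ifi205, a p200 family gene, held 4.80 and 4.73 CPM in WT, 10.0 and 14.8 in H/+ and 16.3 and 36.7 in H/H cDC2. The H/H libraries differed from each other by more than the WT and H/+ groups did, and H/H was 5.56 times as high as WT (adjusted p = 0.0272). Gbp2b, an interferon-inducible GTPase, held 0.193 and 0.509 CPM in WT, 1.72 and 0.966 in H/+ and 3.03 and 4.45 in H/H cDC2 (H/H against WT log2 difference 3.35, SE 0.55, adjusted p = 0.0294). Of the 11 p200 genes tested, Ifi205 was the 1 called in H/H against WT (0.0686% of all genes were called higher). With the replicate block 2 of the 11 were called higher (0.0998%), Ifi205 and Ifi211. Ifi211 held 6.19 and 5.77 CPM in WT, 7.63 and 9.41 in H/+ and 9.63 and 15.8 in H/H cDC2, and it passed with the replicate block (adjusted p = 0.00547, against 0.0577 without). Of 28 interferon-stimulated genes none was called in the ordered test or in H/H or H/+ against WT, with or without the block, and their median change per copy was 0.04 against 0.00 over all genes tested. The H/H calls were lost without WT replicate 1 or 2 for Ifi205 (0.264 and 0.411, and 0.0589 with no filter on low counts) and without H/H replicate 2, WT replicate 1 or WT replicate 2 for Gbp2b (0.273, 0.311 and 0.1). The p200 genes and the guanylate-binding genes hold similar copies, between which the deposited estimates may split reads.

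The upstream stretch of Ifi205 (GRCm38.p6, chr1:174031756-174032005, minus strand, 5′ to 3′) is shown because its GAAA repeat, in capitals, is the motif also marked in Gpr141b.
Ifi205: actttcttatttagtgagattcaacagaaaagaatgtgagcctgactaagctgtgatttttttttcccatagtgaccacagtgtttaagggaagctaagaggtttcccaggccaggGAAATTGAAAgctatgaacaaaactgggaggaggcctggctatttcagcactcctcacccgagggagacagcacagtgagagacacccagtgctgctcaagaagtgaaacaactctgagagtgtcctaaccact

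Itga8, the alpha 8 chain of an integrin that binds extracellular matrix, was also called in H/H against WT. It held 1.39 and 0.655 CPM in WT, 2.34 and 3.41 in H/+ and 3.60 and 3.93 in H/H cDC2, a mean 3.80 times as high in H/H as in WT (adjusted p = 0.0204). The call was lost without H/H replicate 1, H/H replicate 2 or WT replicate 2 (0.0693, 0.224 and 0.256).

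The genes that fell were surface receptors of cDC2 and other myeloid cells. Mgl2 (CD301b), a lectin that binds galactose residues and marks part of the cDC2, held 14.5 and 11 CPM in WT, 4.57 and 6.14 in H/+ and 2.20 and 1.51 in H/H cDC2. It fell by 1.38 per copy on the log2 scale (SE 0.13, adjusted p = 0.00989), and the WT mean was 6.85 times the H/H mean. The gene lies at chr11:70130329-70137550 (GRCm38, plus strand). Tarm1, an activating receptor of myeloid cells, held 10.8 and 8.64 CPM in WT, 5.50 and 4.93 in H/+ and 2.80 and 2.03 in H/H cDC2. It fell by 1.00 per copy (SE 0.11, adjusted p = 0.0239). Neither gene's genotypes overlapped. Clec10a (CD301a), a close relative of Mgl2 in the same stretch of chromosome 11, held 16.3 and 15.0 CPM in WT, 5.74 and 8.76 in H/+ and 4.93 and 5.48 in H/H cDC2 (per-copy log2 change -0.80, SE 0.11, adjusted p = 0.06, and 0.0412 with the replicate block). Both genes are similar enough that reads may be split between them.

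Other lectins of this kind varied. Of 7 tested Mgl and CD209 genes, 1 was called lower in the ordered test (0.0132% of all genes tested) and 2 with the block (0.0329%). Their median change per copy was -0.36, against 0.00 over all genes tested. Cd209b, at 10.4 and 12.1 CPM in WT, 6.42 and 10.6 in H/+ and 4.27 and 5.54 in H/H cDC2, passed in H/H against WT with the block (adjusted p = 0.0373) and not without it (adjusted p = 1). Cd209a, the most abundant member, held 570 and 560 CPM in WT, 414 and 501 in H/+ and 414 and 428 in H/H cDC2 and did not pass the ordered test (adjusted p = 0.915, and 0.0418 with no filter on low counts). Cd209e was not lower in H/H, at 10.7 and 8.67 CPM against 8.09 and 4.78 in WT. Mgl2 and Tarm1 lost the ordered call without H/H replicate 2 (adjusted p 0.0509 and 0.149) and without WT replicate 1 (0.21 and 0.237), and Tarm1 lost the H/H call without any 1 of the H/H or WT libraries (0.0987 to 0.62) or with a stricter filter on low counts (0.0538). Mgl2 lost it without H/H replicate 2 (0.172) or WT replicate 1 (0.0548).

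**Figure D2:**
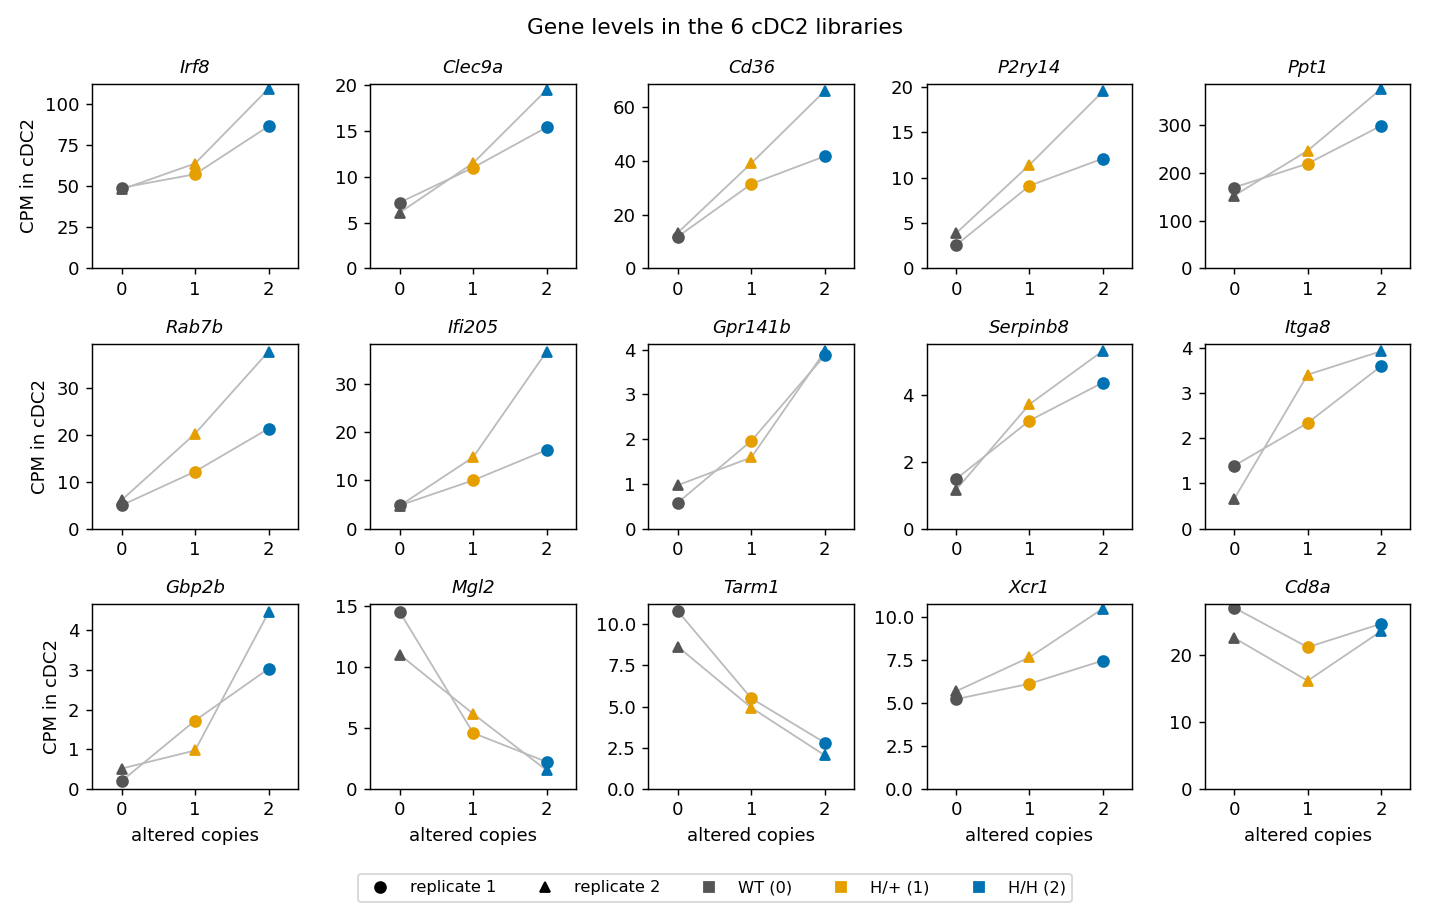
Levels of 15 genes in the 6 cDC2 libraries, as CPM on the y axis of each panel against the number of altered copies (0 WT, 1 H/+, 2 H/H). Circles are replicate 1 and triangles replicate 2, and grey lines join libraries of equal replicate number. Irf8, Clec9a and Ppt1 are higher and Mgl2 and Tarm1 lower at each step, while Cd8a, at 27.0 and 22.5 CPM in WT, 21.1 and 16.1 in H/+ and 24.6 and 23.5 in H/H, has no such order.

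A single altered copy was enough for some genes to pass. H/+ against WT called 4 of 16036 genes (0.0249%), all higher. Cd36 was 2.80 times as high in H/+ as in WT (log2 difference 1.48, SE 0.17, adjusted p = 0.00746) and P2ry14 3.16 times (1.66, SE 0.22, adjusted p = 0.0227). On the CPM scale the H/+ mean had covered 55% of the H/H difference from WT for Cd36, 55.9% for P2ry14, 42.6% for Clec9a, 40.9% for Ppt1 and 24.3% for Irf8. For Mgl2 and Tarm1 it had covered 67.9% and 61.7%. None of these 7 genes passed a test of departure from the log2 midpoint of WT and H/H (adjusted p = 1), and H/H against H/+ called 0 genes by edgeR (521 at an unadjusted p under 0.05), while DESeq2 called 5. The log2 difference of H/H from H/+ was 0.70 for Irf8 (SE 0.13, adjusted p = 0.486) and 0.61 for Cd36 (SE 0.16, adjusted p = 1).

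The other 2 genes called in H/+ were transcripts of uncertain function. Gm36933 held 3.87 and 3.91 CPM in WT, 11 and 9.07 in H/+ and 6.50 and 6.25 in H/H cDC2. AC139579.1, annotated as a processed transcript at chr7:102235854-102237530 (GRCm38), had 74 and 33 counts in H/+ cDC2, and 0 counts in both WT and both H/H libraries. Against 3 counts over a whole group, the limit that 0 allows for counting error only, H/+ cDC2 was at least 45.0-fold higher than WT and at least 36.6-fold higher than H/H. This transcript was the 1 gene that departed from the midpoint (adjusted p = 0.0113, 0.00624% of genes tested). With the replicate block H/+ against WT called 17 genes (0.106%), all higher, among them Clec9a (adjusted p = 0.0202), Rab7b and Serpinb8 (0.00477 each). The others were of mixed kinds, such as Ep300 (0.0341), Kat6a (0.0129), Utrn (0.0349) and the long noncoding transcript Gm4316 (0.00395). Kat6a held 30.4 and 25.5 CPM in WT, 52.0 and 50.2 in H/+ and 43.6 and 30.1 in H/H cDC2, and Ep300 18.1 and 13.5, 29.1 and 28.1, and 24.9 and 19.8 CPM in the same order. Higher H/+ values were not limited to cDC2. In cDC1 Ep300 held 25.1 and 18.0 CPM in H/+ against 14.8 and 11.6 in WT. Kat6a held 35.1 and 35.9 CPM in H/+ cDC1 against 26.4 and 19.7 in WT cDC1. In hybrid cells Ep300 held 23.9 and 23.9 CPM in H/+ against 16.4 and 17.8 in H/H, and Kat6a 42.0 and 36.2 against 33.0 and 25.9. The count of 4 became 7 without either H/H library, 1 without H/+ replicate 2 and 0 without WT replicate 1 (786 at an unadjusted p under 0.05), where Cd36 had adjusted p = 0.117 and P2ry14 0.174. Both also lost the call without H/+ replicate 2 (0.0559 and 0.259) and in the fit on the 6 libraries alone (0.527 each).

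Over the marker lists, cDC1 genes tended to lie higher and cDC2 genes lower in H/H than in WT cDC2, with few single genes called. The lists were written with earlier results of these data known, so these counts are not independent of them. Of the cDC1 markers 2 of the 29 tested were called higher in the ordered test (0.0197% of all genes tested were). Of the 32 tested in the 16-library fit 5 were called higher in H/H against WT (0.0686%) and 1 in H/+ against WT (0.0249%). In each of these comparisons 0 were called lower. With the block the ordered test called 5 higher (0.0592%). Both H/H libraries stood above both WT libraries for 15 of the 29 (15.5% of all genes tested did so) and below for 2 (15.3%), and 9 were ordered upward across the 3 genotypes without overlap (0.796%), against 0 ordered downward (0.934%). The median change per copy was 0.13, against 0.00 over all genes. Naaa, a lysosomal amidase, held 37.9 and 36.1 CPM in WT, 39.2 and 52.6 in H/+ and 57.3 and 72.4 in H/H cDC2 and did not pass (adjusted p = 0.0577 in H/H against WT). Xcr1, the chemokine receptor that defines cDC1, held 5.22 and 5.68 CPM in WT, 6.12 and 7.66 in H/+ and 7.47 and 10.5 in H/H cDC2, and in H/H against WT it passed with the block (adjusted p = 0.0373) and not without it (0.143). Gcsam and Itgae were not higher, with Gcsam at 0.267 and 0.29 CPM in H/H against 0.516 and 0.995 in WT.

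Of 28 cDC2 markers 1, Mgl2, was called lower in the ordered test (0.0132% of all genes) and in H/H against WT (0.0125%), and 0 higher. Their median change per copy was -0.12, against 0.00 over all genes. Both H/H libraries stood below both WT libraries for 16 of the 28 (15.3% of all genes) and above for 0 (15.5%). The summed level of the list was 5855 and 5084 CPM in WT, 4595 and 4483 in H/+ and 4393 and 4220 in H/H cDC2, and the genotypes did not overlap. Sirpa, an inhibitory receptor that binds CD47, held 261 and 251 CPM in WT, 205 and 221 in H/+ and 238 and 211 in H/H cDC2. Irf4, a relative of Irf8 on which cDC2 depend, held 111 and 107 CPM in WT, 132 and 94.1 in H/+ and 120 and 100 in H/H cDC2, and its genotypes overlapped. Il1rn, the interleukin 1 receptor antagonist, held 30.1 and 30 CPM in WT, 23.1 and 16.9 in H/+ and 15.0 and 16.6 in H/H cDC2 and did not pass (adjusted p = 0.114 in the ordered test). Among 12 tested genes of MHC class II presentation, the function for which cDC2 are known, none was called. Their median change per copy was -0.06, against 0.00 over all genes. Both H/H libraries lay below both WT libraries for 9 (15.3% of all genes) and above for 0 (15.5%). H2-Aa, for example, held 15900 and 15100 CPM in WT, 14400 and 13800 in H/+ and 13200 and 13300 in H/H cDC2 (per-copy log2 change -0.11, adjusted p = 0.999).

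Other transcription factors did not pass. Of 17 IRF factors and partners Irf8 was the 1 called in H/H against WT (0.0686% of all genes were called higher). Batf3, Spi1 (PU.1) and Irf4 had per-copy log2 changes of 0.02, -0.03 and 0.01. None of 25 dendritic cell factors was called. Zeb2, a repressor that favours cDC2, held 88.9 and 65.8 CPM in WT, 84.6 and 75.6 in H/+ and 82.3 and 72.6 in H/H cDC2. Id2, an inhibitor of E proteins, held 505 and 458 CPM in WT, 594 and 515 in H/+ and 585 and 611 in H/H cDC2 (adjusted p = 0.906 in H/H against WT). Of the 14 purinergic receptors tested P2ry14 was the 1 called in H/H against WT (0.0686% of all genes) and in H/+ against WT (0.0249%). Of 23 scavenger and dead cell uptake receptors the 2 called in H/H against WT (0.0686%) were Clec9a and Cd36. Irf8, P2ry14, Clec9a and Cd36 were picked with earlier results of these libraries known, so these counts are not independent of that choice. Of 16 genes of ESAM-low and monocyte-like cDC2, Mgl2 was the 1 called. It was lower in the ordered test (0.0132% of all genes) and in H/H against WT (0.0125%). With the block 2, Mgl2 and Clec10a, were called lower in the ordered test (0.0329%) and in H/H against WT (0.0374%). Both H/H libraries lay below both WT libraries for 9 of the 16 (15.3% of all genes) and above for 3 (15.5%). Of 11 genes of the ESAM-high, Notch2-dependent cDC2 none was called. The lists of MHC class I and cross-presentation, cathepsins and antigen processing, pattern recognition, maturation, cell cycle, stress response, pDC and NK cells had no call in the ordered test or in any pairwise genotype comparison, with or without the block.

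The genes whose levels tracked Irf8 most closely over the 6 libraries were found by Pearson correlation of log2 CPM among 9151 genes with a mean of at least 5 CPM. Among the closest were Btla (r = 0.991), Pde1b (0.976), Ppt1 (0.976), Naaa (0.968), Pgk1-rs7 (0.966), Wdfy4 (0.964), Ifi211 (0.958), Clec9a (0.956) and Ifi205 (0.955). With 6 libraries in 3 genotypes these values rank genes and carry no test. The changes behind them differed in size. The per-copy log2 change was 0.06 for Wdfy4 and 1.23 for Ifi205. Btla, an inhibitory receptor, held 48.6 and 50.0 CPM in WT, 51.0 and 53.6 in H/+ and 58.4 and 64.0 in H/H cDC2. Wdfy4, a factor of cross-presentation, held 280 and 287, 289 and 295, and 300 and 317 CPM in the same order.

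The change per copy in cDC2 was set against that in cDC1 of the same 3 genotypes, in 1 model over 12 libraries. It differed for 252 of 15840 genes (1.59%), 64 with a higher (0.404%) and 188 with a lower slope (1.19%) in cDC2. Irf8 had a slope of 0.51 in cDC2 and -0.73 in cDC1, a difference of 1.24 (SE 0.11, adjusted p = 4.03e-05). The cDC1 slope alone called 599 genes (3.78%), 369 higher (2.33%) and 230 lower (1.45%). Of the cDC1 markers 15 had a higher slope in cDC2 and 0 a lower one. Cd8a was one of them, with 24.6 and 23.5 CPM in H/H against 27.0 and 22.5 in WT cDC2, and 117 and 134 CPM in H/H against 660 and 581 in WT cDC1. Of the cDC2 markers 12 had a lower slope in cDC2 and 0 a higher one, among them Sirpa, Itgam and Cd209a. Of the interferon-stimulated genes 15 had a lower slope in cDC2, and 22 of the 28 were called higher in cDC1, with a median change per copy of 0.88 there.

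**Figure D3:**
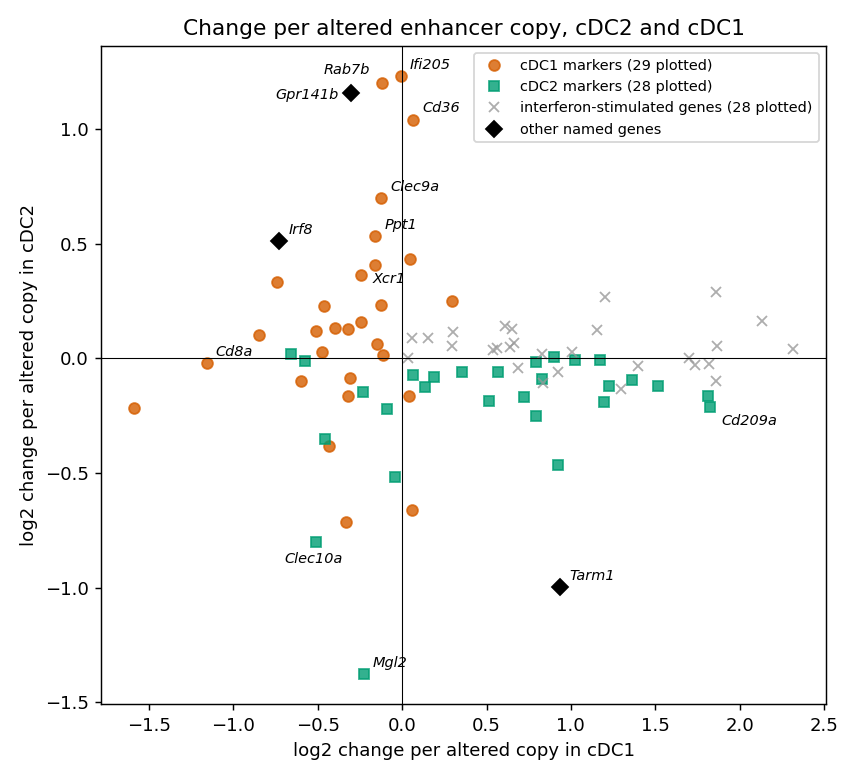
Change per altered enhancer copy on the log2 scale, in cDC2 (y axis, 6 libraries) against cDC1 (x axis, from the 12-library model). Each point is a gene of 3 lists or, as a black diamond, another named gene. Irf8 lies at 0.51 in cDC2 and -0.73 in cDC1, and the interferon-stimulated genes spread to the right (median 0.88 in cDC1) while staying near 0 in cDC2 (median 0.04).

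The hybrid population, sorted from H/H and H/+ mice, gave a scale for these differences. Of the cDC1 markers, 16 were at least 5-fold higher in H/H hybrid cells than in WT cDC2 and at 10 CPM or more in them, a minimum set after the values were seen. For these the H/H cDC2 mean lay between -2.78% and 12.8% of the way from WT cDC2 to H/H hybrid cells, with a median of 1.73%. The median was 1.49%, with a range of -13.7% to 12.8%, over all 21 markers at least 5-fold higher. Septin3 lay highest at 12.8%, followed by Clec9a at 7.62%, Cd36 at 6.99% and Ppt1 at 5.94%. Rab7b lay at 4.03%, Ifi205 at 3.95% and Xcr1 at 0.77%, and Itgae, Gcsam, Plpp1 and Tlr11 lay below 0. Outside the list, Irf8 lay at 9.58%, P2ry14 at 7.14% and Gpr141b at 2.22%. The summed level of the cDC1 marker list was 790 and 764 CPM in WT, 873 and 935 in H/+ and 1046 and 1226 in H/H cDC2, against 5886 to 8109 in the hybrid and 12160 to 15850 in the cDC1 libraries. The part of cDC1 or hybrid cells within the cDC2 sort in these levels was not tested.

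**Figure D4:**
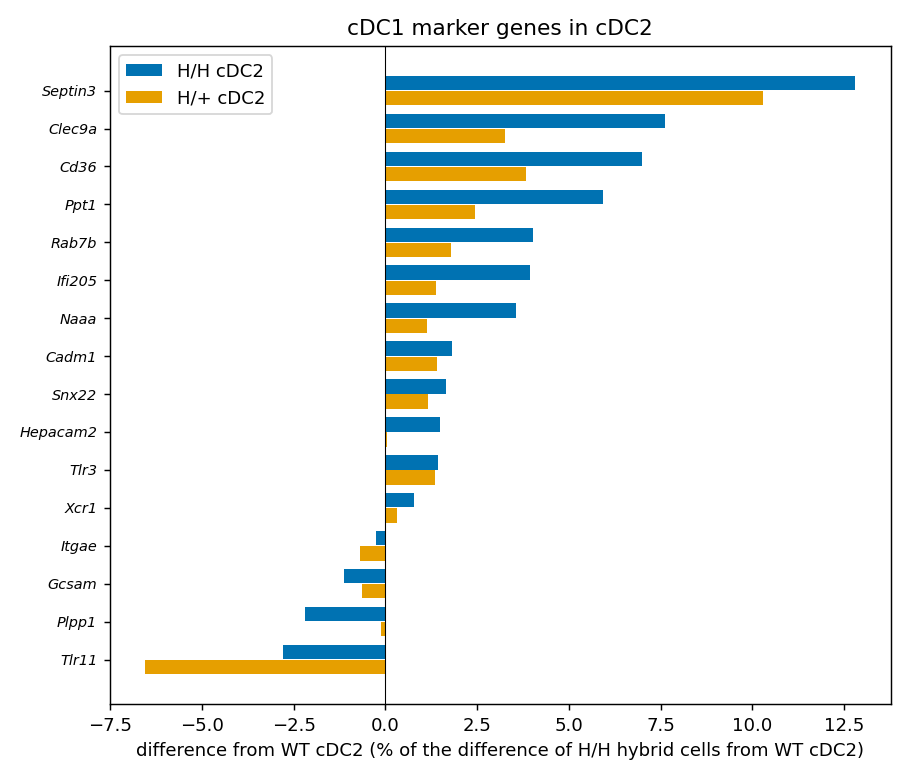
Difference of the H/H (blue) and H/+ (orange) cDC2 mean from the WT cDC2 mean for 16 cDC1 markers, on the x axis as a percentage of the difference between H/H hybrid cells and WT cDC2. Each bar is 1 gene from means of 2 libraries, without an error. H/H bars run from 12.8% for Septin3 to -2.78% for Tlr11.

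Motifs known for IRF8 and its partners were searched on both strands of 16 RefSeq windows of 300 bases (250 before to 50 after a start site) for 12 of the 13 genes called in H/H against WT, all but Rab7b. The interferon repeat, GAAA and GAAA with any 2 bases between, occurs in 3.44% of all 32851 windows and was found in Gpr141b, 12 bases before the start, in Ifi205, 134 bases before and 24 after it, and in Gbp2b, 137 bases before it. The AP-1 site TGANTCA occurs in 7.81% of windows and was found in 2 of the 4 P2ry14 windows, in Gbp2b and in Serpinb8. The ETS-IRF motif, GGAA and GAAA with any 2 bases between (2.72%), and the composites of the AP-1 letters, with GAAA directly before them (0.125%) or GAAA after any 4 bases (0.119%), were not among the matches. The windows of Irf8, Clec9a, Cd36, Ppt1, Mgl2, Tarm1 and Itga8 held none of these letters, and 6 of the 16 windows held any. A match describes a sequence and not a bound site.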

How the data were processed

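RNA was measured in sort-purified mouse spleen cells. Per the labels' protocols, total RNA was amplified with a SMARTer Ultra Low kit, and the tools listed in the submitters' processing notes are bcl2fastq, DRAGEN and edgeR, with no version. The aligner settings and build are not given in the sources used here, and 99.38% of the gene IDs match GENCODE M21 (GRCm38). The deposited table holds the authors' expected counts per gene, of which 10.771% of values were not whole, and 287 repeated lines were removed. The expected counts were rounded here.

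Genes passing edgeR's expression filter were scaled by trimmed-mean normalization and tested with edgeR 4.0.16's quasi-likelihood test (R 4.3.3, limma 3.58.1), with Benjamini-Hochberg adjustment over all genes tested and a threshold of 0.05. The ordered test used the 6 cDC2 libraries with copies as a number (15208 genes). Pairwise tests used all 16 libraries of the experiment (16036 genes), and slopes in cDC2 and cDC1 were compared over 12 libraries (15840 genes). SE is the log2 change divided by the root of F. The genotypes H/H and H/+ share both WT libraries. Log2 CPM used a prior count of 2. Script steps were tested on simulated data, and DESeq2 1.42.0 and other settings were alternatives.

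Pairing was checked by correlating the differences between replicates 2 and 1 across genotypes: 0.115 between H/H and H/+, 0.156 between H/H and WT and 0.322 between H/+ and WT. Each was over 0.1, and fits with the replicate number as a block are given as an alternative. The main tests carried no block and so did not use the pairing. Without X and Y genes the values were 0.007, 0.028 and 0.242. The block changed no direction of a called gene.

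The members and gene lists were chosen with earlier results of these data known. Named were Irf8, Cd36, Clec9a, P2ry14, 10 identity genes, genes within 500 kb of Irf8, up to 15 called genes each way with at least 2 CPM in the higher group (predicted genes left out), and up to 4 members, by ordered-test p, of lists with a call. Others were chosen after their values were seen. Some items that these rules name are not reported here. Depth intervals are not given for expected counts, and floors cover counting error only.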

Additional observations from a re-analysis of the deposited data

Results flagged for a closer look

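The genes here were flagged because their change per altered copy differed between cDC2 and cDC1, tested as an interaction in 1 edgeR model over 12 libraries. Values are the cDC2 slope minus the cDC1 slope on the log2 scale. Gpr141b had a difference of 1.445 (adjusted p = 2.12e-05), Irf8 of 1.236 and Gbp2b of 1.632 (adjusted p = 0.0207). Among cDC1 genes the difference was 0.821 for Clec9a, 0.692 for Ppt1, 1.136 for Cd8a, 0.6 for Xcr1, 1.315 for Rab7b, 1.188 for P2ry14, 1.237 for Ifi205 and 0.971 for Cd36. The cDC1 slope was -1.16 for Cd8a and between -0.24 and 0.07 for the other 7.

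The other flagged genes, each at a higher level in WT cDC2 than in WT cDC1, had a lower slope in cDC2 than in cDC1. The difference was -1.46 for Sirpa, -1.388 for Il1rn, -1.344 for Itgam, -1.184 for Zeb2, -0.894 for Irf4, -0.966 for Lrp1, -2.111 for Cd209b, -2.041 for Cd209a and -1.94 for Tarm1. In cDC1 the slopes of these 9 genes ran from 0.77 to 1.83.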

How the results depend on the processing

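With the replicate number as a block, which equals a term for Xist libraries, the calls were 14 in place of 5 in the ordered test, 22 in place of 13 in H/H against WT, 17 in place of 4 in H/+ against WT and 7 in place of 1 in the departure from the midpoint. Without the low-count filter the calls were 90 in the ordered test, 79 in H/H against WT, 84 in H/+ against WT, 27 in H/H against H/+, 38 in the departure and 541 in the slope difference. DESeq2 called 40, 33, 34, 5, 4 and 468 in that order. The ordered test on all 16 libraries called 13, and fits on the 6 cDC2 libraries alone called 0 in H/H against WT, 0 in H/+ against WT (565 and 793 at an unadjusted p under 0.05) and 0 in the departure, which was also 0 with the stricter filter. Leaving out 1 library gave 0 to 11 calls in the ordered test, 7 to 19 in H/H against WT, 0 to 7 in H/+ against WT, 0 to 2 in H/H against H/+, 1 to 2 in the departure and 177 to 264 in the slope difference. Uncalled genes that changed sign in their per-copy log2 change were Batf3, Emc8, Irf4, Nfil3 and Zeb2 (-0.0312) without H/H replicate 1, Mthfsd without H/H replicate 2, Cd8a and Mthfsd (-0.0031) without WT replicate 1, Gm33142, Irf4 (-0.0104) and Zeb2 without WT replicate 2, and Zeb2 (-3e-04) with no filter. Leaving out 1 library, these changes ran from -0.0048 to 0.0368 for Batf3, -0.0867 to 0.0872 for Cd8a, -0.0259 to 0.0974 for Emc8, -0.1377 to 0.5963 for Gm33142, -0.044 to 0.069 for Irf4, -0.0106 to 0.031 for Mthfsd, -0.1499 to 0.0061 for Nfil3 and -0.0906 to 0.0912 for Zeb2. The cause was not tested. With 2 libraries a group, small changes such as those of Sirpa or Id2 were not detectable at this precision.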

Other observations

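AC139579.1, which had counts in both H/+ cDC2 libraries and 0 in the other 4, held 2.31 and 2.27 CPM in H/+ cDC1 and was listed at 0 in both H/H and both WT cDC1 libraries. In hybrid cells it held 3.03 and 3.42 CPM in H/H and 1.34 and 3.55 CPM in H/+.

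Further myeloid genes differed in value between genotypes. Adgre4, an adhesion receptor of myeloid cells, held 85.8 and 84.5 CPM in WT, 47.9 and 58.5 in H/+ and 42.2 and 47.4 in H/H cDC2 (adjusted p = 0.0468 in the ordered test with the block, 0.0772 without). H2-M2, an MHC class I-like gene, held 202 and 138 CPM in WT, 146 and 100 in H/+ and 105 and 87.3 in H/H cDC2 (adjusted p = 0.0358 in the ordered test with the block, 0.962 without). Ccr2, a chemokine receptor of monocytes, ran the other way in value, with 61.9 and 50.1 CPM in WT, 68.9 and 54.2 in H/+ and 89.2 and 107 in H/H cDC2.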
